A study of Mus musculus with 6 samples.

Results

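The control wounds of the series are described here by the level of each gene. They are 3 arrays of the 6, chosen by their titles: the Adenovirus-GFP control and both tamoxifen-treated controls. Every wound was a full-thickness wound of dorsal skin, taken whole from a mouse of C57/BL6 background on day 8 after injury, and its total RNA was labelled with biotin and read on an Illumina bead array. The GFP control mouse carried exon 3 of the beta-catenin gene flanked by loxP sites on both alleles (flox/flox), received an adenovirus that encodes green fluorescent protein and was 2 months old. The tamoxifen control mice were flox/flox for exons 2 to 6, received tamoxifen and carried no Cre transgene. Replicate 1 of this group was 5 months old and replicate 2 was 2 months old, and replicate 1 is given first wherever both values are printed. For comparison, the stabilised wound came from an exon 3 flox/flox mouse of 2 months given an adenovirus with Cre recombinase, which leaves a protein that escapes degradation. The 2 knockdown wounds came from mice flox/flox for exons 2 to 6 with tamoxifen-dependent Cre-Esr1, aged 5 months (replicate 1) and 2 months (replicate 2). The labels do not say whether animals were pooled or which cells took up the virus. Virus or tamoxifen, floxed allele and sex-linked transcripts all differ between the GFP control and the tamoxifen controls, so that these factors cannot be told apart.

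A mouse skin wound of this age is background for what follows. Keratinocytes have migrated over the defect and stratify again, while fibroblasts and contractile myofibroblasts fill the bed with collagen-rich granulation tissue, fed by new vessels and patrolled by macrophages. Under mouse skin lies a thin sheet of skeletal muscle, the panniculus carnosus, which a full-thickness wound crosses. RNA of a whole wound mixes all of these, and in such a mixture fewer cells of a type and less RNA per cell cannot be told apart.

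A probe was taken as detected where its deposited detection p was under 0.01. On this limit 15135 of the 45281 probes (33.4%) were detected on all 3 control arrays. They covered 9213 of the 19057 genes with a probe (48.3%), each represented by its brightest probe, while 8673 genes had no probe detected on any control array. Levels are the authors' normalized log2 intensities, on which 1 unit is a 2-fold change. Among the detected genes the mean over the 3 arrays ran from 6.03 to 16.03, with a median of 9.01. Just inside the limit, with a largest detection p of 0.00962, were 45 probes at mean levels of 6.03 to 6.84, and just outside it, at 0.0107, were 173 probes at 6.0 to 8.84. Probes differ in how brightly they report a transcript, so ranks across genes are a description of these probes and not of transcript numbers. With 3 arrays, precision is limited by their number.

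The brightest genes of a control wound belonged to the cells' own translation machinery and to the epidermis. Of the 30 brightest genes, 13 were in the cell-wide lists (ribosomal proteins, respiratory chain, cytoskeleton and translation), 7 in the epidermal lists, 3 in the immune lists and 2 in the dermal lists. None was in a muscle or vessel list. The 5 that no list held were CYTB and ND4, which encode subunits of the mitochondrial respiratory chain, Lgals7, a galectin of stratified epithelia, Itm2b, a membrane protein, and Ubb-ps, a ubiquitin pseudogene whose probe may read the expressed ubiquitin gene. Stfa1, a stefin that inhibits cysteine proteases, stood first at 16.03 on the GFP control array and 16.02 and 16.04 on the tamoxifen control arrays. Its probe may also read its near-identical paralogs. Rplp1 and Rpl41, proteins of the large ribosomal subunit, followed, Rplp1 at a mean of 16.01 ± 0.01 (SD, n = 3) and Rpl41 at 15.98 to 16.04. Then came Krt10, the keratin of differentiating epidermis, at 15.98 to 16.01, and Krt14, the keratin of its basal layer, at 15.97 to 16.02.

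The order among the very brightest genes cannot be resolved. Each array's highest normalized value was 16.04, and 14 of the 30 brightest genes had a raw intensity over 60000 on a control array, close to the highest of the series, 69143. The 30 genes spanned means of 15.32 to 16.03, and their values on single arrays cross, as the plot of the 30 brightest genes shows. Rps2 read 15.45 on the GFP control array and 15.86 and 15.94 on the tamoxifen control arrays. Krt16 read 15.65 on the GFP control array and 15.09 and 15.33 on the tamoxifen control arrays, so even here an array could move a gene by many ranks.

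**Figure D1:**
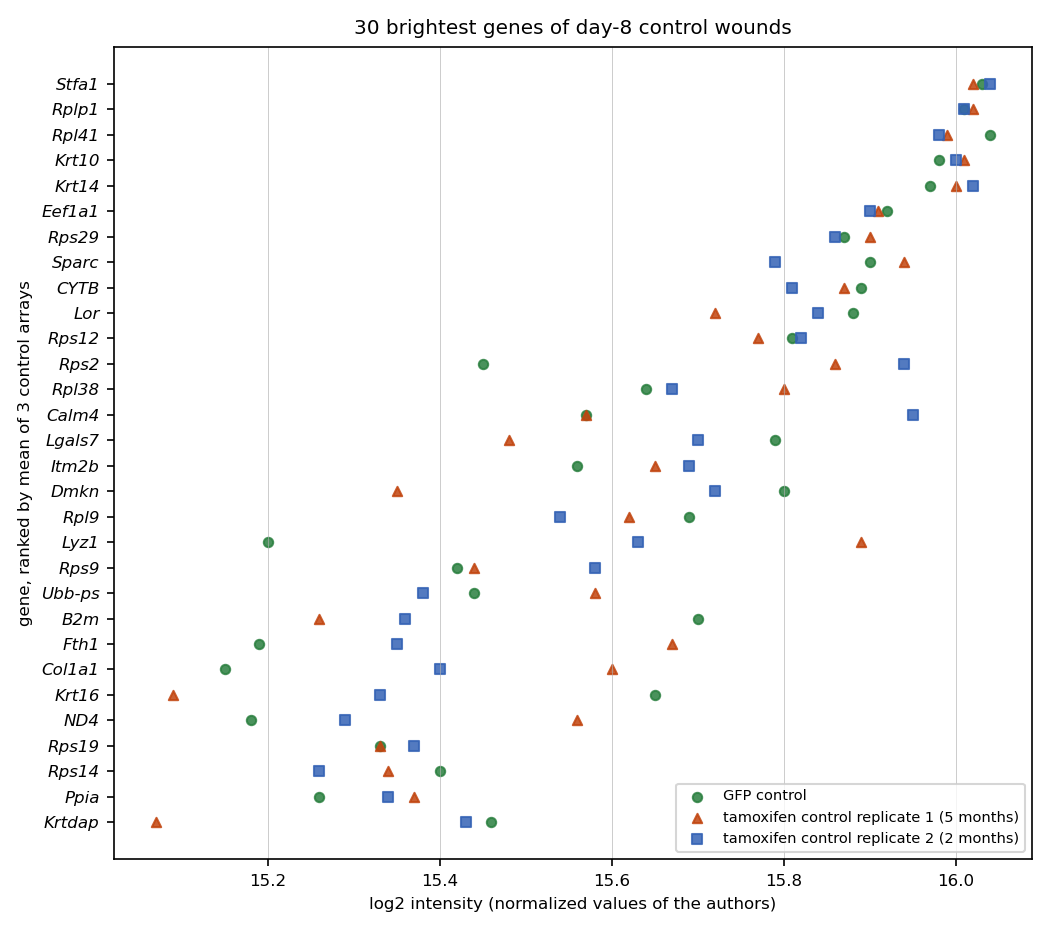
Log2 intensity (horizontal axis) of the 30 brightest genes, ranked by their mean over the 3 control arrays (vertical axis), with 1 point for each control array. The points of the first 5 genes lie between 15.97 and 16.04 on every array, while Lyz1, Krt16 and Krtdap spread over 0.39 to 0.69 units.

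Widening the view to the 100 brightest genes kept the same 2 leading components. The cell-wide lists held 36 of them, of which 28 were cytosolic ribosomal proteins. The epidermal lists held 11, the dermal lists 10, the immune lists 9 and the wound remodelling lists 2, while muscle, vessel, appendage, blood and nerve lists held 0 and 32 genes were in no list. Of the 500 brightest genes, 77 were cell-wide, 29 epidermal, 27 dermal, 15 immune and 8 of wound remodelling, with 3 of muscle, 3 of epidermal appendages, 2 of blood, 1 of vessels and 335 in no list. Wound remodelling here pools matrix proteases and inhibitors (5 of the 8), interferon-stimulated genes (3 of the 8), cell cycle genes, and beta-catenin and Wnt genes. These counts depend on how many genes each list holds, and describe which markers reached the top rather than shares of tissue. The 100 brightest genes of the GFP control array, of tamoxifen control replicate 1 and of replicate 2 had 85 genes in common. A further limit is annotation, since 42 of the 100 brightest probes had no single gene symbol.

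Several of the 32 bright genes outside the lists have known roles. Asprv1, a protease of the granular layer, had a mean of 15.21 ± 0.26, and Rptn, repetin, a protein of the cornified envelope, had 14.9 ± 0.54 (SD, n = 3). Anxa2, a membrane-binding annexin, stood at 15.18 ± 0.16 and S100a11, a calcium-binding protein, at 15.13 ± 0.03. Gpx1, the cytosolic glutathione peroxidase, had 15.11 ± 0.1. These genes were picked from the unlisted ones after their values were seen.

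Epidermal differentiation was the tissue programme with the highest levels. Of 37 suprabasal and cornified-envelope genes with a probe, 34 were detected on all 3 control arrays (91.9%, against 48.3% of all genes). The median level of those 34 was 13.3, against 9.01 over all detected genes, and 20 of them were among the 500 brightest. Lor, loricrin, the main protein of the cornified envelope, read 15.88 on the GFP control array and 15.72 and 15.84 on the tamoxifen control arrays. Calm4, a calcium sensor of differentiating keratinocytes, read 15.57 on the GFP control array and 15.57 and 15.95 on the tamoxifen control arrays. Dmkn and Krtdap, both secreted by differentiating keratinocytes, had means of 15.62 ± 0.24 and 15.32 ± 0.22 (SD, n = 3). The 3 arrays overlapped closely for these genes, none of which ranged over as much as 0.5 units. They lie close to the top of the scale, so a small range says little about how alike the wounds were. Of the 34 detected genes of the list 12 ranged over at least 1 unit, among them Sprr1a with 3.13.

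The basal and wound-edge list followed, with 15 of 18 genes detected on all 3 arrays and a median level of 11.84. Krt16 (mean 15.36 ± 0.28), Krt17 (15.09 ± 0.49) and Krt6b (14.62 ± 0.17), keratins that keratinocytes switch on at a wound edge, ranked 25, 40 and 70, and their probes may read closely related keratins. Krt5, the basal partner of Krt14, read 13.96 on the GFP control array and 13.56 and 14.11 on the tamoxifen control arrays. Krt8 and Krt18, keratins of simple epithelia, were not detected on any of the 3. Of the junctional list 9 of 10 genes were detected at a median of 10.94, led by the connexin Gja1 at 13.95 ± 0.06. A lower call rate marked the appendages. Sebaceous genes were detected in 9 of 13 cases, with Elovl4, a fatty acid elongase also active in the epidermis, at 13.57 ± 0.26 and Scd1, a desaturase, at 12.62 ± 0.18. Hair follicle genes were detected in 5 of 22 cases, and 11 of the 22, among them the hair keratins Krt31, Krt34 and Krt35, were detected on no control array. Melanocyte genes were detected in 3 of 8 cases, with Dct, an enzyme of pigment synthesis, at 8.94 ± 0.11.

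Promoter sequence was not used in the ranking, and a short motif in it was found in some of the suprabasal genes. RefSeq windows of 300 bases (250 before to 50 after the start, assembly GRCm38.p6) were searched for the letters TATAAA beginning 45 to 25 bases before the start on the gene's own strand. The windows of Krt10 and Lor hold it, and that of the ribosomal gene Rpl41 is shown as a bright gene without it. Capitals mark TATAAA, and each window is given 5′ to 3′ on the gene's strand, which is the minus strand for all 3. The Krt10 window is chr11:99389315-99389614, that of Lor is chr3:92083093-92083392 and that of Rpl41 is chr10:128549119-128549418.
Krt10: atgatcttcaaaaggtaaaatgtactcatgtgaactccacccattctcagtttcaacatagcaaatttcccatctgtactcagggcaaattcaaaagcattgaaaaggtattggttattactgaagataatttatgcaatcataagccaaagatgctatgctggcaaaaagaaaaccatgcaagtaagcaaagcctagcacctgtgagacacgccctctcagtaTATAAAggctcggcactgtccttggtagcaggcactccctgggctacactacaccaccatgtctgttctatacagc
Lor: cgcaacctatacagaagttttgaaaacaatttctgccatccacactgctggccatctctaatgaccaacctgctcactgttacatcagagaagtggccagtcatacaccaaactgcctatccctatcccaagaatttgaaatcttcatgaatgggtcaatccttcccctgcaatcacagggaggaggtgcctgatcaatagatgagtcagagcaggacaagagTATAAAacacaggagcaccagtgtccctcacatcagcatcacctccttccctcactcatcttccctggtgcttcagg
Rpl41: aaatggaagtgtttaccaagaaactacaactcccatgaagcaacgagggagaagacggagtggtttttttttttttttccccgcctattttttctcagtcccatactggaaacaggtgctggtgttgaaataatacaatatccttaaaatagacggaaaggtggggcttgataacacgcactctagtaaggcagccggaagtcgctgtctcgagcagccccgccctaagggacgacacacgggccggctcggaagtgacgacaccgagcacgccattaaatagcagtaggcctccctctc
Of 31 windows that matched 27 of the 34 detected suprabasal genes, 9 (29%) held the motif in that place, including those of Krtdap, Sprr1b, Sprr2d and Ivl. Brightness did not sort them: Calm4 (rank 14), Dmkn (17), Lce1c (60) and Casp14 (114) had no match, while Sprr2h (5521) and Tgm3 (7598) had one. None of the 10 windows of the basal and wound-edge list did, nor any of the 51 windows of 42 ribosomal protein genes, and 2 of 21 did in the collagen and matrix list (9.52%). Among the 91 windows of 77 of the 100 brightest genes 10 did (11%), among the 9558 windows of genes detected on all 3 control arrays 139 did (1.45%), and among all 32851 windows 675 did (2.05%). Anywhere in the window and on either strand, the motif lay in 29% of the suprabasal windows and about as many of the matrix windows (6 of 21, 28.6%), in 19% of the macrophage windows, 1 of 10 of the basal, 9.8% of the ribosomal, 7.77% of those of detected genes and 13.6% of all windows. No other motif was searched. Such a match describes the letters in the window and not the use of a site, and neighbouring genes of 1 family share sequence.

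Collagen and matrix genes were the next brightest of the tissue lists. All 29 fibrillar collagen and matrix genes with a probe and all 21 fibroblast genes were detected on all 3 control arrays. The matrix genes had a median level of 13.07, with 17 of 29 among the 500 brightest. Sparc, a matrix protein that binds collagen, read 15.9 on the GFP control array and 15.94 and 15.79 on the tamoxifen control arrays. Col1a1, the main chain of type I collagen, read 15.15 on the GFP control array and 15.6 and 15.4 on the tamoxifen control arrays. The proteoglycans Bgn and Dcn stood at 15.07 ± 0.11 and 15.06 ± 0.06 (SD, n = 3). The dimmest member was Postn, periostin, at 7.28 ± 0.16.

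Fibroblast genes were dimmer, with a median of 10.35, although Serpinh1, the collagen chaperone, reached 15.12 ± 0.15. Vim, the intermediate filament of mesenchymal cells, read 13.3 on the GFP control array and 13.89 and 13.22 on the tamoxifen control arrays. Of the contractile list 15 of 17 genes were detected at a median of 11.38. Acta2, the smooth muscle actin of myofibroblasts, ranked 112 with 14.33 on the GFP control array and 14.22 and 14.09 on the tamoxifen control arrays, a close match. The list was not uniform. Of its 15 detected genes 11 lay above the median of all detected genes. Tagln and Cald1 were dim, at 6.67 ± 0.32 and 6.73 ± 0.21, and Cnn1 and Lmod1 were detected on no control array. In 3 of the 15 the range was at least 1 unit, namely Tpm2 with 4.02, Des with 2.55 and Actg2 with 1.05. Tpm2 and Des were lowest on the GFP control array and highest on tamoxifen control replicate 1, the order of the skeletal muscle genes below. Actg2 was highest on the GFP control array. Of the 20 matrix proteases and inhibitors 19 were detected, at a median of 10.48, close to that of the fibroblast list, with 5 among the 500 brightest. They were led by Mmp14, a membrane-bound metalloproteinase, at 14.77 ± 0.19 and Mmp2, the gelatinase it activates, at 14.64 ± 0.19. Adipocyte genes were detected in 6 of 12 cases. Lpl, lipoprotein lipase, had a mean of 13.07 ± 0.79, while Plin1, Fabp4 and Cidec were detected on no control array.

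Immune genes spread widely, with macrophage products near the top and cytokines around the median of all detected genes. Macrophage genes were detected in 25 of 28 cases at a median of 11.08, with 5 among the 100 brightest. Lyz1 and Lyz2, the 2 near-identical lysozyme genes whose probes may read each other's transcript, had means of 15.57 ± 0.35 and 14.52 ± 0.71. Lgals3, galectin-3, and Ctsb, cathepsin B, both also made by other wound cells, stood at 14.95 ± 0.04 and 14.56 ± 0.05. Cd74, the chaperone of MHC class II, had 14.32 ± 0.25, and of the antigen presentation list 11 of 12 genes were detected at a median of 11.23.

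The neutrophil list held members at every level. Of its 19 genes 8 were detected on all 3 control arrays, 5 on some and 6 on none. Stfa1 and S100a8 were among the 100 brightest, and both gene families are also known from keratinocytes. Mmp9, gelatinase B, stood at 9.5 ± 0.49, and Csf3r, the receptor that drives granulocyte production, at 6.91 ± 0.31. The granule genes Elane, Ngp, Camp, Ltf and Mmp8 were detected on no control array. Lymphocyte genes were detected in 10 of 17 cases at a median of 8.65. The brightest of them, Thy1 at 13.47 ± 0.34, also marks fibroblasts and stands in both lists. The T cell receptor chain Cd3g had 8.91 ± 0.59, and Cd4, Cd8a and the B cell gene Ms4a1 were detected on no control array. Mast cell genes were detected in 7 of 10 cases at a median of 8.29. Of 24 cytokine and chemokine genes 18 were detected, at a median of 9.08 against 9.01 over all detected genes, with 9 above that level and none among the 500 brightest. Ccl8, a chemokine that attracts monocytes, led at 12.42 ± 0.13, while Tnf, at 6.18 ± 0.11, lay near the detection limit and Il6 was not detected on any of the 3.

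Vessel genes were detected at middling levels. Of 27 endothelial genes 23 were detected, at a median of 10.02, which is the 68.7th percentile of detected genes. Plvap, which spans endothelial fenestrae, read 12.02 on the GFP control array and 12.89 and 11.99 on the tamoxifen control arrays. Pecam1, an adhesion molecule of endothelial junctions, read 10.03 on the GFP control array and 11.01 and 9.97 on the tamoxifen control arrays. For both, tamoxifen control replicate 1 stood above the other arrays, as it did for 21 of the 23 endothelial genes, against 36.5% of all detected genes. The lymphatic genes were led by Pdpn, podoplanin, which other skin cells also make, at 12.68 ± 0.21. The pericyte list had all 8 genes detected at a median of 7.88, below the median of all genes. Haemoglobin transcripts were present, with Hbb-bt at 12.69 ± 0.5 and Hba-a1 at 12.1 ± 0.49. Hbb-bt read 15.5 on the stabilised array and 12.43 and 15.18 on the knockdown arrays, so that the stabilised wound and knockdown replicate 2 lay above every control wound. Hba-a1 ran the same way, at 14.94 on the stabilised array and 11.96 and 14.71 on the knockdown arrays.

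**Figure D2:**
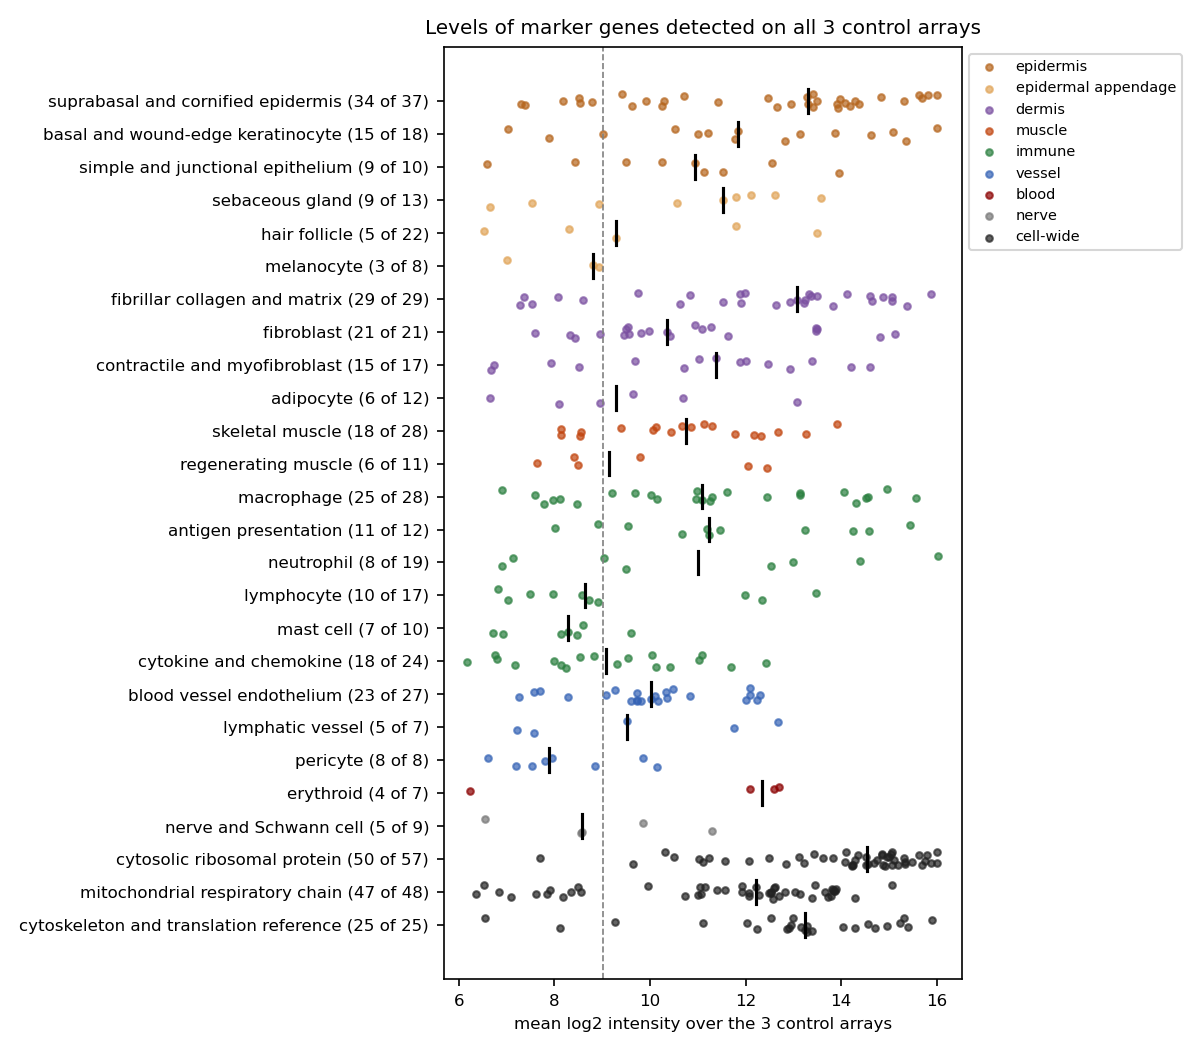
Mean log2 intensity over the 3 control arrays (horizontal axis) of each marker gene detected on all 3, by marker list, with the list's median as a black bar and the median of all 9213 detected genes, 9.01, as a dashed line. Numbers in brackets give detected genes of those with a probe. The highest medians are those of the ribosomal (14.54), suprabasal (13.3), cytoskeleton and translation (13.24) and matrix (13.07) lists.

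Genes of tissues outside the skin served as a check of the labelled tissue. Of 11 testis genes none was detected, nor was any of 14 among the 15 kidney and gut genes. The liver list had Trf and Hp detected on all 3, at 10.14 ± 0.64 and 8.64 ± 0.94, and both are also made elsewhere in the body. Albumin, Alb, read 4.66 on the GFP control array and 4.6 and 4.55 on the tamoxifen control arrays, all undetected. Cartilage and bone genes were detected on all 3 arrays in 1 of 11 cases, brain in 1 of 15 and pancreas in 2 of 12.

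Skeletal muscle was the component on which the control wounds disagreed most. Of 28 genes with a probe 18 were detected on all 3 arrays, 9 on some and 1 (Trdn) on none. The median level of the 18 was 7.83 on the GFP control array and 12.56 and 11.48 on the tamoxifen control arrays. Every one of the 18 was lowest on the GFP control array and highest on tamoxifen control replicate 1, against 32.6% and 36.5% of all detected genes. Of 11 genes of muscle regeneration with a probe 6 were detected on all 3 arrays, 2 on some and 3 (Myod1, Myf5 and Pax7) on none. The 6 had the same order on the 3 arrays as the 18.

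Single muscle genes show how far apart the wounds were. Myl1, a myosin light chain of fast fibres, read 12.16 on the GFP control array and 15.38 and 14.21 on the tamoxifen control arrays. Acta1, skeletal muscle actin, read 11.3 on the GFP control array and 14.92 and 13.59 on the tamoxifen control arrays. Pvalb, the calcium buffer parvalbumin of fast fibres, read 7.77 on the GFP control array and 13.98 and 12.11 on the tamoxifen control arrays, and its range of 6.21 was the widest of all 9213 genes. In each of the 3 genes the tamoxifen control replicates were themselves more than 2-fold apart. Myh8, the perinatal myosin heavy chain, read 10.57 on the GFP control array and 13.09 and 12.48 on the tamoxifen control arrays. Myog, the myogenic factor of differentiating myoblasts, read 6.54 on the GFP control array and 8.72 and 7.62 on the tamoxifen control arrays. On the stabilised array Myl1 read 6.18 and Acta1 5.2. On the knockdown arrays Myl1 read 12.39 and 14.46, the first from the 5-month wound. The mean rank of muscle genes therefore describes no single control wound, and without tamoxifen control replicate 1 the list's median percentile was 65.2, against 80.0 with it.

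**Figure D3:**
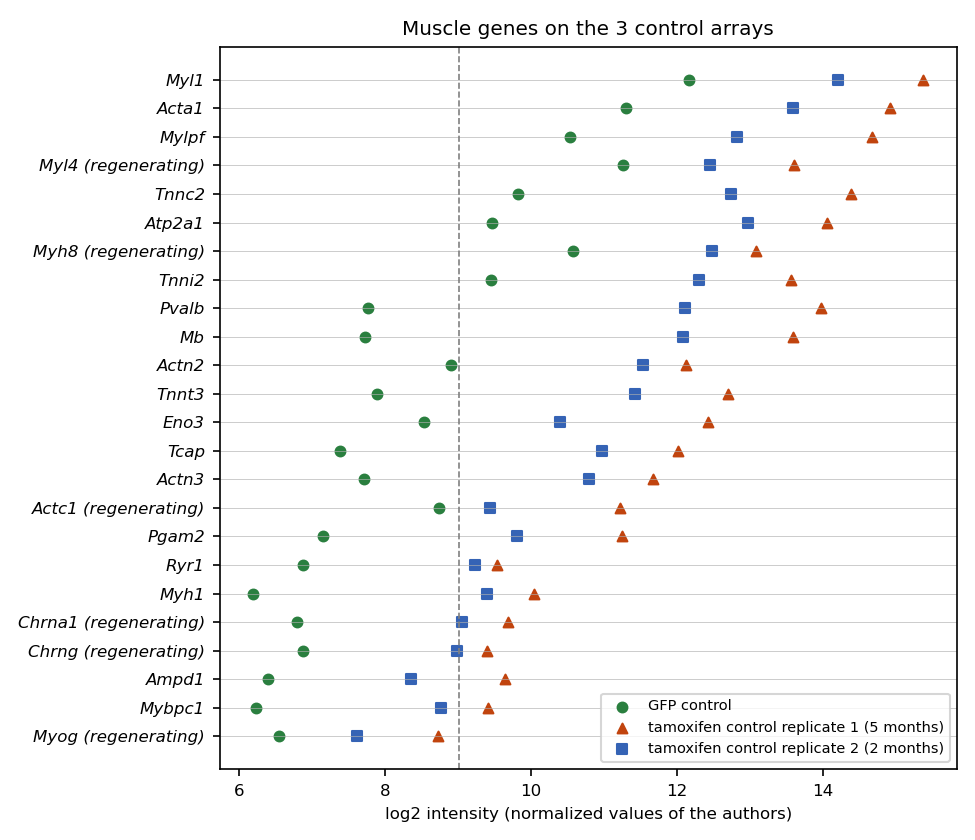
Log2 intensity (horizontal axis) of the 24 muscle genes detected on all 3 control arrays (vertical axis, by mean level), with 1 point for each array and the median of all detected genes as a dashed line. In every gene the GFP control lies lowest, tamoxifen control replicate 2 between and replicate 1 highest.

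Over most genes the 3 wounds were close. The median range over the 3 arrays was 0.33 units for all detected genes, with or without those of the muscle lists, 0.2 for the 100 brightest and 0.26 for the 500 brightest. A range of at least 1 unit occurred in 648 genes (7.03%), of which 24 were in the muscle lists and 624 in no muscle list. The 624 include Tpm2 (range 4.02), Des (2.55) and Fabp3 (2.65). Like the muscle lists, these genes were lowest on the GFP control array and highest on tamoxifen control replicate 1. Some lists other than muscle also spread, with a median range of 1.54 for neutrophil, 1.46 for interferon-stimulated and 1.09 for hair follicle genes. Among the 100 brightest it occurred in 3, Rptn, Lyz2 and S100a8. Across genes, Spearman's rho was 0.976 between the tamoxifen control arrays, 0.967 between the GFP control and replicate 2 and 0.95 between the GFP control and replicate 1. These are descriptions over genes, which are not independent replicates. The array that stood apart in the 648 genes was the GFP control in 335, tamoxifen control replicate 1 in 240 and replicate 2 in 73.

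The marker lists moved between arrays in groups. Keratinocyte genes tended to be lowest on tamoxifen control replicate 1, with 13 of 15 basal, 27 of 34 suprabasal and 9 of 9 junctional genes, against 35.0% of all detected genes. Among the widest were Sprr2 genes, small proline-rich proteins that are cross-linked into the cornified envelope. All 7 that were detected were lowest on replicate 1, and 6 of them ranged over at least 1 unit, while Sprr2a1 ranged over 0.76. Sprr2g read 12.15 on the GFP control array and 6.46 and 9.55 on the tamoxifen control arrays. Sprr2e read 12.98 on the GFP control array and 7.85 and 11.24 on the tamoxifen control arrays. Their probes may share reads with other Sprr2 copies. On the same arrays the muscle genes ran in the opposite order to Sprr2g and Sprr2e. The skeletal muscle medians were 7.83 on the GFP control array and 12.56 and 11.48 on the tamoxifen control arrays. This opposite order was not seen between the knockdown arrays. There the 5-month wound was lower for the muscle median (8.94 against 11.4), Sprr2g (8.77 against 10.01) and Sprr2e (9.52 against 11.44). On the stabilised array the muscle median was 5.8, with Sprr2g at 11.01 and Sprr2e at 11.53. Other keratinocyte genes were mixed. Of the 15 basal genes 5 were highest on the GFP control array and 10 on replicate 2. Of the 34 suprabasal genes 17 were highest on the GFP control array and 15 on replicate 2. The part of the muscle genes in the keratinocyte values was not tested.

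Of the inflammatory lists, neutrophil and interferon genes tended to be brightest on the GFP control array and cytokines did not. Neutrophil genes were highest there in 6 of 8 cases, against 35.5% of all detected genes. Of the 18 cytokine and chemokine genes 8 were highest and 9 lowest there. S100a8 read 15.13 on it and 13.65 and 14.43 on the tamoxifen control arrays, and S100a9, its partner in calprotectin, read 13.76 on it and 11.06 and 12.76 on the tamoxifen control arrays. Il1b, the cytokine interleukin-1 beta, read 11.08 on the GFP control array and 8.24 and 7.77 on the tamoxifen control arrays. Interferon-stimulated genes were highest on the GFP control array in 12 of 15 cases. Irf7, the transcription factor that amplifies the interferon response, read 10.4 on it and 8.11 and 8.77 on the tamoxifen control arrays. Isg15, a ubiquitin-like modifier, read 12.61 on it and 10.92 and 11.13 on the tamoxifen control arrays. By contrast 15 of 25 macrophage genes were lowest on the GFP control array, against 32.6% of all detected genes. Mrc1, the mannose receptor, read 10.18 on it and 12.09 and 11.58 on the tamoxifen control arrays.

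**Figure D4:**
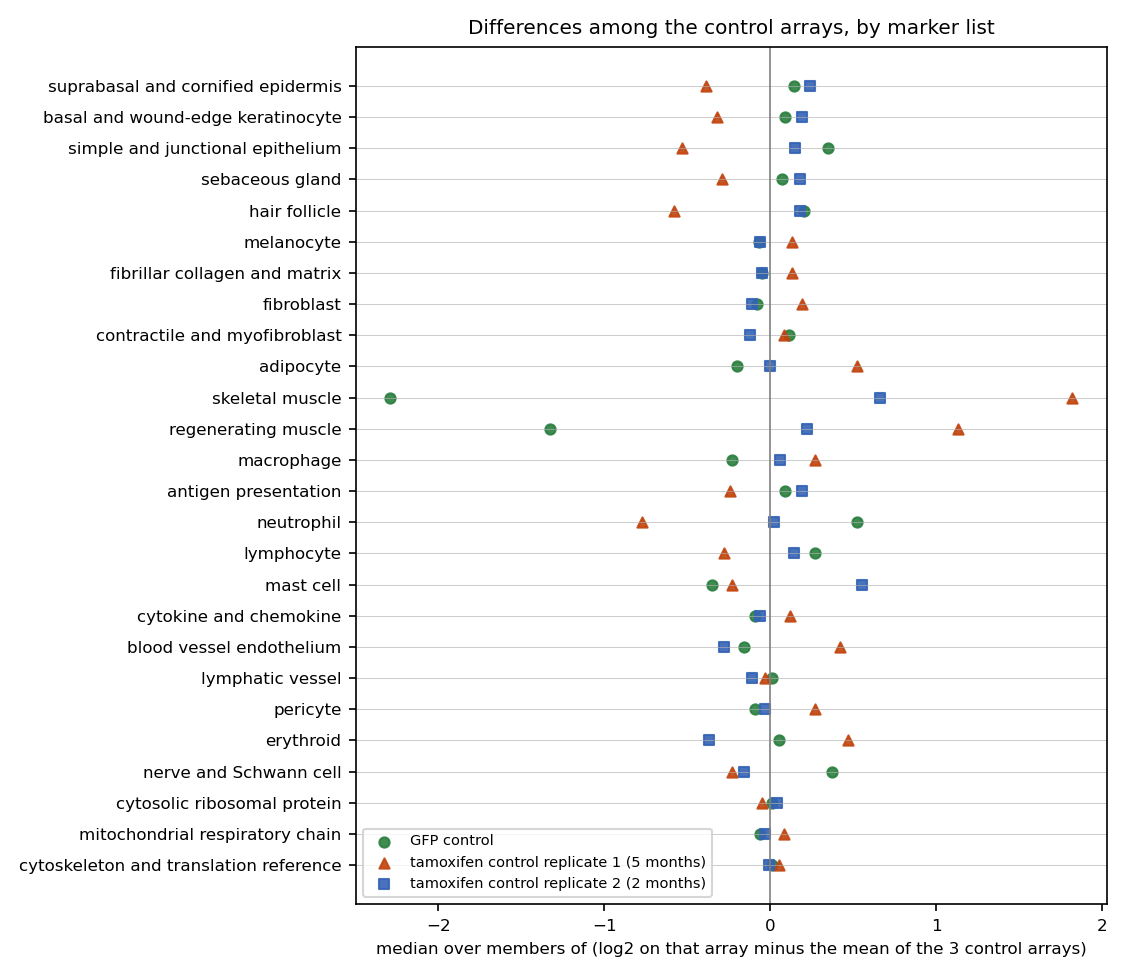
For each marker list (vertical axis), the median over its detected genes of the log2 level on 1 control array minus the gene's mean over the 3 (horizontal axis), with 1 point for each array. Skeletal muscle spreads from -2.29 on the GFP control to 1.82 on tamoxifen control replicate 1, and the 3 cell-wide lists lie within 0.08 of 0.

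The tamoxifen control wounds, which differ in age by label, were at least 2-fold apart in 222 genes, against 509 for the GFP control and replicate 1 and 299 for the GFP control and replicate 2. Replicate 1 (5 months) was at least 2-fold above replicate 2 (2 months) in 88 genes and at least 2-fold below it in 134. Eno3, the enolase of muscle, read 12.42 on replicate 1 and 10.4 on replicate 2. Fabp3, a fatty acid-binding protein of muscle, read 10.08 on replicate 1 and 7.97 on replicate 2. The knockdown wounds have the same ages, so that age could be tested over the 4 tamoxifen arrays with group in the model, at 1 residual degree of freedom. In this fit, added after the data were seen, limma called 0 of 9855 genes (0%), with a smallest adjusted p of 0.433 and 1000 genes (10.1%) at an unadjusted p under 0.05. The difference of 5 minus 2 months was 0.35 ± 0.95 SE for Fabp3 (adjusted p = 0.915) and 0 ± 1.08 SE for Eno3 (adjusted p = 0.999). Some other differences between the replicates recurred in the knockdown pair. Sprr2e read 9.52 and 11.44 on the knockdown arrays, with a difference of -2.65 ± 0.42 SE (adjusted p = 0.433). Trp63, of the basal list, differed by -1 ± 0.14 SE (adjusted p = 0.433). Dlk1, of the fibroblast list, was higher at 5 months, by 1.59 ± 0.17 SE (adjusted p = 0.433). These genes were picked from those with the smallest p-values of this fit.

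The GFP control was set against the tamoxifen controls with limma over all 6 arrays, which assumes that the lone GFP array varies like the tamoxifen arrays. Of 10384 genes, 31 (0.299%) passed an adjusted p of 0.05, 8 of them higher on the GFP control (0.077%) and 23 lower (0.221%). An unadjusted p under 0.05 was found in 795 genes (7.66%). None of the 31 was among the 100 brightest genes. Of the 31, 9 had a probe detected on all 3 control arrays, and in 8 of them it was the probe tested. The calls needed both tamoxifen control replicates: 0 genes passed without replicate 1 (smallest adjusted p = 0.0907, 523 genes at an unadjusted p under 0.05) and 0 without replicate 2 (smallest adjusted p = 0.0854, 859 genes). Age moves the count as well, since the GFP control was 2 months old. With age as a term, added after the data were seen, 2 genes passed, Fcer1g and Skint9, and with the replicate number as a block 13 passed. The labels call the arrays biological replicates. The spread behind the p-values without an age or block term comes from the tamoxifen control pair and the knockdown pair. Each pair holds a 5-month and a 2-month wound, so this spread mixes age with other differences between wounds. None of it comes from the GFP control.

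The highest calls concerned a sex-linked RNA, a retinol-metabolising enzyme and hair follicle keratins. Xist, the RNA that coats the inactive X chromosome, read 10.12 on the stabilised array, 10.42 on the GFP control array and 4.62 and 4.67 on the tamoxifen control arrays. It was at least 21.3-fold higher on the GFP control (adjusted p = 0.00454). Eif2s3y, which lies on the Y chromosome, read 4.6 on the stabilised and 4.6 on the GFP control array, against 9.05 and 9.09 on the tamoxifen control arrays. It was at least 8.3-fold lower on the GFP control (adjusted p = 0.00854). Adh7, an alcohol dehydrogenase that acts on retinol, read 10.06 on the stabilised array, 10.7 on the GFP control array and 4.65 and 4.55 on the tamoxifen control arrays, at least 25.9-fold higher on the GFP control (adjusted p = 0.00454). Krt71 and Krt27, keratins of the inner root sheath of the hair follicle, rose at least 8.23-fold and 9.0-fold on the GFP control (adjusted p = 0.0102 and 0.0423), with 4.93 and 5.31 on the stabilised array. Erdr1 was the only higher call besides Mpv17l detected on the tamoxifen control arrays, at 12.1 on the GFP control array against 8.52 and 8.95 on the tamoxifen control arrays (log2 difference 3.37 ± 0.26 SE).

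Fcer1g, the signalling chain of Fc receptors in myeloid cells, showed the largest difference. It read 4.71, undetected, on the GFP control array, against 13.81 and 13.66 on the tamoxifen control arrays, at least 211-fold lower (adjusted p = 0.00241). On the stabilised array it read 12.94. Skint9, of an immunoglobulin-like family of the skin, read 4.62 on the stabilised array and 4.49 on the GFP control array, against 11.39 and 12.06 on the tamoxifen control arrays, and was at least 52.3-fold lower on the GFP control (adjusted p = 0.0154). Tomm22, a subunit of the mitochondrial import pore, read 6.99 on the stabilised array and 6.8 on the GFP control array, against 11.07 and 11.11 on the tamoxifen control arrays (log2 difference -4.29 ± 0.19 SE, adjusted p = 0.00854). Ccn5, a matricellular protein, had the same difference of -4.29 ± 0.20 SE. Pdrg1 (at least 22.2-fold), Klk1b21 (at least 18.9-fold), Ifi205 (at least 12.3-fold) and Casp9, the initiator caspase (at least 12-fold), fell as well. Probes of Klk1b21 may read other kallikreins of its family.

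In 25 of the 31 genes the stabilised array, from the same viral experiment, lay on the GFP side of the midpoint. Fcer1g, Ifi205, Hoxc10, Krt71, Krt27 and Nppb were the exceptions. The share of all tested genes that lay so is not given here, and the count only describes these 31. Of the 14 called genes with more than 1 detected probe, 5 had probes that disagreed in sign, namely Ndufb10, Cptp, Mpeg1, Casp9 and Mpv17l, and for these the call belongs to 1 probe. For Ndufb10 the probes' log2 differences ran from -4.07 to 1.88. Of the lists, against 0.299% of all genes, hair follicle genes held 2 calls in 11 tested, macrophage genes 2 in 27 (Fcer1g and Mpeg1), sex-linked genes 2 in 3 and the respiratory chain 1 in 47. Krt71 and Krt27 were detected only on the GFP control array, and so entered the comparison only through it. Such a limit holds for most calls. Of the 8 higher calls 6, with these 2 among them, were undetected on both tamoxifen control arrays. Of the 23 lower calls 17 were undetected on the GFP control array. All of these entered the comparison only through the group where they are high.

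The muscle and interferon lists held no call. Over the 18 skeletal muscle genes detected on all 3 control arrays the median log2 difference was -3.43, against 0.01 over the 9205 genes so detected. An unadjusted p under 0.05 was found in 15 of the 18, against 5.76% of those 9205, and the smallest was that of Pvalb (adjusted p = 0.287). A further 9 muscle genes were detected only on the tamoxifen control arrays, among them Sln, sarcolipin, at 5.66 on the GFP control array and 11.98 and 11.72 on the tamoxifen control arrays (adjusted p = 0.11). They entered the comparison only through the group where they are high. Of the 15 interferon genes detected on all 3 arrays 13 were above 0, with a median of 1.12, and 9 had an unadjusted p under 0.05, the smallest being that of Mx2 (adjusted p = 0.0726). Isg15 had a log2 difference of 1.59 ± 0.21 SE (adjusted p = 0.129). Krt2, a keratin of the upper epidermis named here after its values were seen, read 4.94 on the GFP control array and 11.13 and 12.05 on the tamoxifen control arrays (adjusted p = 0.172), and 5.11 on the stabilised array.

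**Figure D5:**
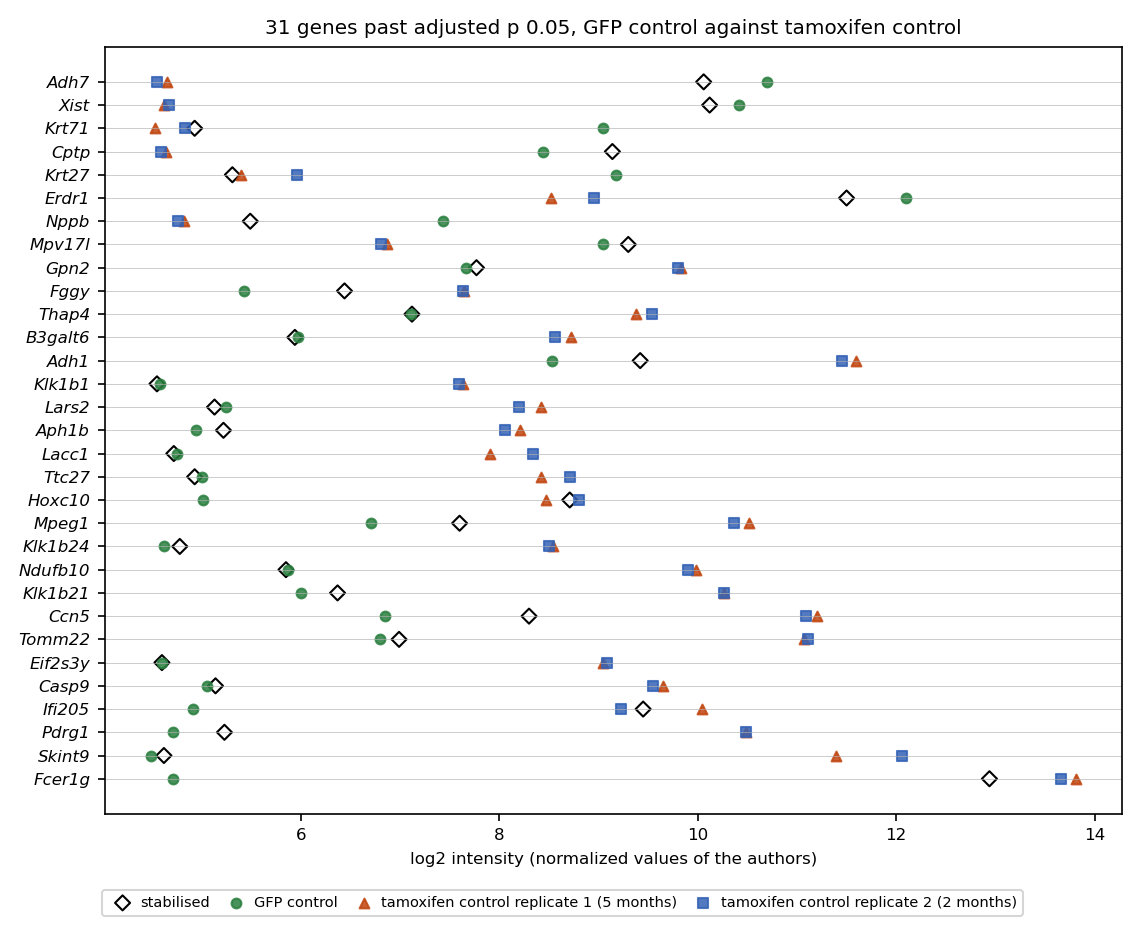
Log2 intensity (horizontal axis) of the 31 genes past an adjusted p of 0.05 in GFP control against tamoxifen control (vertical axis, by size of the difference), with 1 point for each control array and an open diamond for the stabilised array. In every gene the tamoxifen control replicates lie closer to each other than to the GFP control, and in 25 genes the diamond lies on the GFP side of the midpoint.

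Most genes that are bright in control wounds were also at the top in the other wounds. Of the 100 brightest, 89 and 88 were among the 100 brightest of the knockdown arrays and 82 of the stabilised array. In knockdown against tamoxifen control, limma called 0 of 9855 genes (0%), with 434 (4.4%) at an unadjusted p under 0.05. Without knockdown replicate 1 it called 7. The median log2 difference of the 100 brightest genes was -0.02, against 0.01 over all genes. They included 3 of those 434, Krt16, Krt17 and Krt6b.

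Those wound-edge keratins were lower on average in the knockdown wounds than in the tamoxifen control wounds. Krt17 read 12.7 and 13.69 in the knockdown wounds against 14.63 and 15.04 in the tamoxifen control wounds (log2 difference -1.64 ± 0.38 SE, adjusted p = 0.976). Krt6b read 11.93 and 13.57 in the knockdown wounds against 14.43 and 14.73 in the tamoxifen control wounds (log2 difference -1.83 ± 0.57 SE, adjusted p = 0.976). Krt16 read 13.18 and 14.51 in the knockdown wounds against 15.09 and 15.33 in the tamoxifen control wounds (log2 difference -1.37 ± 0.47 SE, adjusted p = 0.976). The 3 keratins were picked by their unadjusted p, and none passed the adjusted threshold.

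Between the stabilised and the GFP control wound, 1 array each and therefore with no replicate check, 10002 genes were compared by size. A 2-fold cut-off put 276 above (2.76%) and 491 below (4.91%) the GFP control. On the raw log2 intensities, with neither background correction nor scaling between arrays, the median of all genes was -0.168 and the counts were 51 and 327. Among the 9087 genes detected on both arrays the counts were 204 and 237. Of the 100 brightest 0 were 2-fold higher and 3 were 2-fold lower. Lce1c and Lce1b, late cornified envelope genes, were lower by -1.33 and -1.29 log2 units, and S100a8 by -1.19. Lce1c read 13.55 in the stabilised wound and 14.88 in the GFP control wound.

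Ctnnb1, the gene altered in the series, ranked 1006 in control wounds. It read 11.49 on the GFP control array and 12.04 and 11.48 on the tamoxifen control arrays. Where its probe lies relative to the floxed exons is not known here, so it checks no label. The log2 difference between the GFP control and the tamoxifen controls was -0.27 ± 0.29 SE (adjusted p = 0.95), and that between knockdown and tamoxifen control 0.13 ± 0.24 SE (adjusted p = 0.983). Of 20 genes of the beta-catenin and Wnt list 16 were detected on all 3 control arrays, at a median of 9.17. They were led by Dkk3, of the Dickkopf family of secreted proteins, at 11.9 ± 0.36, and included the Wnt inhibitor Sfrp1 at 10.06 ± 0.56 and the receptor Fzd2 at 9.22 on the GFP control array and 10.44 and 10.34 on the tamoxifen control arrays.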

How the data were processed

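RNA of 6 mouse wounds was measured on Illumina bead arrays. Per the file headers, 1 deposited table holds the raw intensity and the detection p-value of 45281 probes on each array, and 2 stray text lines in it (0.00442%) were dropped. The log2 values used here are those deposited by the authors in the series matrix. They have equal quantiles on every array (median 5.12) and lie within 0.0874 of limma's neqc output on the intensities. The submitters' processing notes name R 2.14, while background and normalization steps are not given there. Per array, 15217 to 16656 probes (33.6% to 36.8%) had a detection p under 0.01, and no array repeats another, since a pair shared at most 2 identical raw signals.

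Symbols came from the platform annotation: 34885 probes had 1 symbol, 18 several and 10378 none, and a RefSeq table changed 0. The brightest detected probe stood for its gene. Marker lists (37, with 686 of 768 symbols on the array) assign genes to tissue components. The control arrays and these lists were chosen with earlier results of these data known, so no pattern shown before counts as independent support. Groups were compared with limma 3.58.1 (R 4.3.3; lmFit with 1 mean per group over all 6 arrays, eBayes, two-sided, Benjamini-Hochberg), with 2 residual degrees of freedom, and the step was tested on simulated data. The GFP comparison kept genes with a probe detected on at least 1 of the 3 control arrays, the knockdown comparison on at least 2 of the 4 tamoxifen arrays and the stabilised comparison on at least 1 of its 2. Where a gene was below detection in a whole group, its fold is a lower bound against, per array, its own value or, where that is lower, the lowest detected signal (5.95 to 6.3 log2). Named genes are the 30 brightest, in each list the 4 brightest and the 2 with the widest range, the largest differences in each comparison, Ctnnb1 and sex-linked genes, and list members named by role. Alternatives covered scaling, background, the detection limit, probe choice, the variance model, a replicate block, an age block (added after the data were seen) and leaving out arrays. Promoter windows are RefSeq's.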

Additional observations from a re-analysis of the deposited data

How the results depend on the processing

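The count of detected genes and the 85 genes shared by the 3 top lists stayed within 1.5 times of their values across settings. These were neqc, raw log2 intensities (no background correction or scaling), the other detection limits and leaving out each control array. Counting probes in place of genes gave 15135. The largest shift of a list's median percentile was 0.2 with neqc, 2.4 on raw log2 intensities and 8.9 with averaged probes. Leaving out the GFP control moved it by up to 21.0, tamoxifen control replicate 1 by up to 18.3 and replicate 2 by up to 12.9, each time in the neutrophil list, which has 8 detected genes. Over lists and settings, 162 median percentiles moved by less than the spread between arrays and 18 by more. Of the mean levels of named genes, 782 moved by less and 14 by more.

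For GFP control against tamoxifen control, 31 genes passed. The count was 13 with the replicate number as a block, 2 with age as a block and 0 to 30 when 1 array was left out. In the tamoxifen groups the replicate number stands for age (5 months for 1, 2 months for 2), while the GFP control carries number 1 at 2 months, so the blocks differ for it. The age block was added after the data were seen. Replicate 1 deviations of the knockdown and tamoxifen control wounds correlated at 0.13 over 9855 genes. For knockdown against tamoxifen control the count was 0 to 7 when 1 array was left out, with the 7 arising without knockdown replicate 1. Of the 100 brightest genes named, 3 changed sign there when 1 array was left out. Lypd3 ran from -0.79 to 0.04, with the upper end without tamoxifen control replicate 2. Lyz2 ran from -0.0039, without the same array, to 0.53. Rpl23 ran from -0.3, without knockdown replicate 2, to 0.76. For stabilised against GFP control, 51 genes were 2-fold higher and 327 lower on raw log2 intensities. Among genes detected on both arrays, on the normalized values, 204 were higher and 237 lower. The causes were not tested.

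Depth in these data means signal over background: genes near the detection limit carry only a bound, and the brightest lie close to the top of the scale. With 2 residual degrees of freedom, a gene that did not pass is not shown to be equal between wounds.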
